A study of Mus musculus with 10 samples.

Results

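Immediate early genes and heat shock genes were followed in smooth muscle cells that had been sorted out of aortas of embryonic day 15.5 mice. The set held 34 genes, taken by symbol from the 28165 genes of the deposited table: transcription factors of the first wave that follows a stimulus, their feedback inhibitors, and heat shock genes. All 34 were in the table, and 31 had enough counts to be tested. The exceptions were Fosl1, Nr4a3 and Hspa1b. There were 5 Eln+/+ and 5 Eln-/- libraries. Both genotypes came from intercrosses of Eln heterozygotes that carried Acta2-GFP, a green fluorescent reporter of smooth muscle actin, so the control cells carried the reporter as well. Sorted cells had been freed with collagenase and were GFP positive, CD31 negative and DAPI negative. CD31 is an endothelial surface protein and DAPI stains dead cells. No treatment was given, and the labels do not name the Eln allele or say whether a library is 1 embryo or a pool. P-values therefore weigh the genotype difference only against the spread between these libraries, and that spread may be technical in part. In bulk RNA, fewer cells of a type and less RNA per cell cannot be told apart.

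Immediate early genes are switched on within minutes of a growth factor, stretch, calcium or stress signal, without the need for new protein. MAP kinases act on the serum response factor and its ETS-family partners, and on CREB, which sit on the promoters before the signal comes. The transcripts are short-lived, and several of the proteins (dual specificity phosphatases, the mRNA decay factor Zfp36, the cytokine inhibitor Socs3) shut the response down again. Enzyme digestion and sorting of a tissue are known to start the same response, along with heat shock genes.

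The promoters of 28 members were matched by symbol in a RefSeq table (GRCm38.p6) of windows from 250 bases before to 50 bases after a start site. The letters TGACG, a short form of the cAMP response element to which CREB binds, were searched on both strands and stood in a window of 16 of the 28 members. Of all 32851 windows 20.8% held them, and of the 10031 genes with a window that were tested here 35.5% did. The full element TGACGTCA, which contains the short form, was found for 3 members (Btg2, Dusp1 and Maff), against 1.79% of all windows and 3.62% of the tested genes. The CArG box, the site of the serum response factor, was found for 2 (Egr2 and Zfp36), against 1.63% of windows and 1.61% of the tested genes. Sites more than 250 bases before a start were not searched. A window without a match, such as that of Fos, therefore does not show that the gene lacks the site. Egr1 had no window in the RefSeq table. The pair of heat shock units GAANNTTC was found for 5 (Fosl2, Hspa1a, Hspa1b, Hspb1 and Jun), against 7.86% of windows and 6.95% of the tested genes. The AP-1 element TGANTCA was found for 1 (Csrnp1), against 7.81% of windows and 5.65% of the tested genes. The GC box GGGCGG was in a window of 26 members, against 35.7% of windows and 68.9% of the tested genes. A match describes letters only. The 250 bases before the start site are shown for 4 members, read 5′ to 3′ on the gene's strand, with TGACG or its reverse complement in capitals. Fos (chr12:85473640-85473889, plus strand) and Jun (chr4:95052223-95052472, minus strand) are shown as a pair that kept a close pattern across libraries. Btg2 (chr1:134079156-134079405, minus strand) is shown for the full element, and Ier5 (chr1:155099637-155099886, minus strand) as a member that did not follow the rest.
Fos: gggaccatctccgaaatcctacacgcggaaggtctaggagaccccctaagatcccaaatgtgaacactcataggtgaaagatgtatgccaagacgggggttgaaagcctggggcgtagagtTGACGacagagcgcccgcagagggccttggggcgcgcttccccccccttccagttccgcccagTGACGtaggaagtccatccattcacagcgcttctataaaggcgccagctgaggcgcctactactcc
Jun: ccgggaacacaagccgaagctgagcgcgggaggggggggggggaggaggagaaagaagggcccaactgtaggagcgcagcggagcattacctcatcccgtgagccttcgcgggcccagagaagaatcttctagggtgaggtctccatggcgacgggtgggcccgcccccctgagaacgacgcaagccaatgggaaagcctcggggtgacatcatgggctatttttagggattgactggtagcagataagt
Btg2: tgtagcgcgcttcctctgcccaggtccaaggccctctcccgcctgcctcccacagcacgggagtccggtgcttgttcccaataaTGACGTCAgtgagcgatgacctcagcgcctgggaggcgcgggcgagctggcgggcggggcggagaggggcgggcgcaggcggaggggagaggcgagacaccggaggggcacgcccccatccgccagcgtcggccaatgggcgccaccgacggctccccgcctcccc
Ier5: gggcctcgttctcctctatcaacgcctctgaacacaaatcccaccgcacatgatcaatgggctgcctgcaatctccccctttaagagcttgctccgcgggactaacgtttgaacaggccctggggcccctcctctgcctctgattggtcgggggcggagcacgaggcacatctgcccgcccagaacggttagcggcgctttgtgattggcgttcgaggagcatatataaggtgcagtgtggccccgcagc
In the Fos stretch the letters began 129 and 66 bases before the start site, and the Btg2 element began 166 bases before it. The stretches of Jun and Ier5 held none of the TGACG, CArG or AP-1 letters.

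Total estimated counts ran from 26951733 to 63866416 per library. Eln itself had 2409 to 105866 counts in Eln+/+ and 0 to 36 in Eln-/-, with no overlap, as each label says. The 36 counts (0.493 CPM) were those of Eln-/- replicate 1, and the other Eln-/- libraries had 0 or 1. The fewest genes were detected in Eln+/+ replicate 1, Eln-/- replicate 4 and Eln-/- replicate 5 (15089, 15595 and 15925), called the 3 least complex libraries here, and 18157 to 22951 in the other 7. A ribosomal RNA gene model took 5.52% to 5.99% of their counts, against 0.225% to 2.96% elsewhere. Markers of smooth muscle (8 of 8 in the table) summed to 966 to 2427 CPM across Eln+/+ libraries and 1159 to 3889 CPM across Eln-/- libraries, where CPM is the count scaled to library size after TMM normalisation. Pecam1, which encodes CD31, belongs to an endothelial list that summed to 14.7 to 79.8 CPM across Eln+/+ libraries and 23.8 to 53 CPM across Eln-/- libraries.

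The members were high together in 2 libraries, 1 of each genotype. Eln-/- replicate 1 had the highest mean log2 CPM of the members, 8.32. Eln+/+ replicate 2 followed at 6.57, and Eln-/- replicate 2 stood at 5.47. In the other 7 libraries it lay between 3.30 and 4.51. By genotype the mean was 4.60 ± 1.14 in Eln+/+ and 5.13 ± 1.95 in Eln-/- (SD, n = 5 each), and the ranges overlapped. Without the highest library, Eln-/- stood at 4.33 ± 0.91 (n = 4). The 34 members together took 3.67% of all counts of the highest library, 1.53% and 0.657% of the next 2 in the same order, and 0.0699% to 0.328% in the others.

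**Figure D1:**
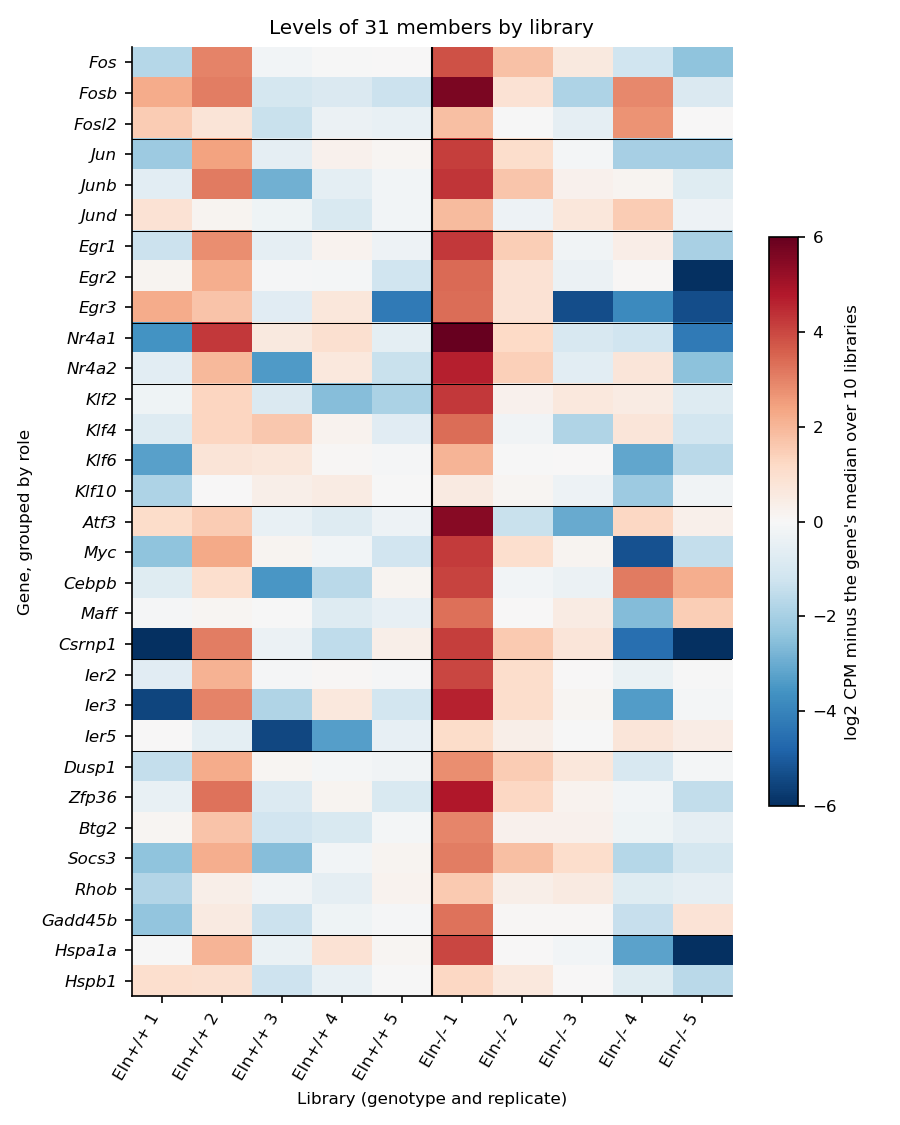
Log2 CPM of the 31 tested members (rows, grouped by role) in each of the 10 libraries (columns), relative to each gene's median over the libraries; the colour scale stops at 6 log2 units on either side. The column of Eln-/- replicate 1 holds the highest value for 30 of 31 genes, and Eln+/+ replicate 2 is second for 20 of them.

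Eln-/- replicate 1 was the highest of the 10 libraries for 30 of 31 members, where 21.6% of all genes tested were highest there. That library was singled out by the members' own mean level. The shares here therefore describe it and are no test. Eln+/+ replicate 2 was the second highest for 20 members, and those 2 libraries formed the top pair for 20 of 31, against 14.7% of all genes. On the log2 scale Eln-/- replicate 1 exceeded the median of the other 9 libraries by a median of 4.02 over the members (range 0.54 to 7.42) and by 0.24 over all 15718 genes tested. It exceeded that median by more than 2 log2 units for 26 members, against 16.7% of all genes. The exception was Fosl2, highest in Eln-/- replicate 4. That library had the lowest TMM factor (0.486, against 1.30 in Eln-/- replicate 1), and a low factor raises CPM. Of the counts kept for testing, Fosl2 took 1962 of 28320298 there and 5568 of 56116487 in Eln-/- replicate 1. The exception therefore depends on the scaling. Above a mean log2 CPM of 5, 20 of 21 members and 14.7% of genes were highest in Eln-/- replicate 1.

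**Figure D2:**
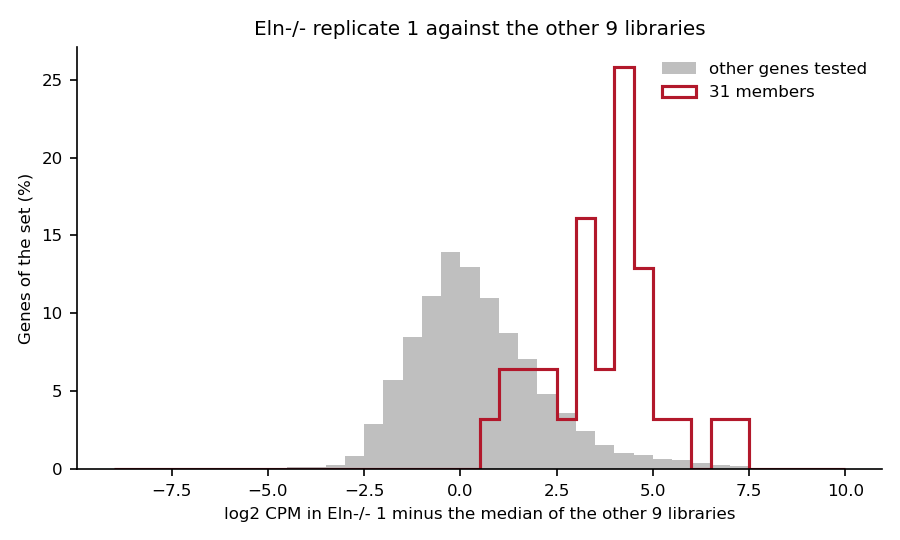
Difference in log2 CPM between Eln-/- replicate 1 and the median of the other 9 libraries (horizontal axis) as the percent of genes in each half-unit bin (vertical axis), for the 31 members (red outline) and the other genes tested (grey). The members lie between 0.54 and 7.42 with a median of 4.02, while all genes tested have a median of 0.24. The library was singled out by the members' own mean, so the contrast is a description.

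Other properties of Eln-/- replicate 1 also stood at the end of their range. It had the most detected genes (22951), the lowest share of counts on a ribosomal RNA gene model (0.225%, against 0.645% to 5.99% in the others), the highest smooth muscle marker sum (3889 CPM, with 5 of 8 markers highest there) and the lowest erythroid marker sum (23.2 CPM, against 332 to 18883 CPM). Eln+/+ replicate 2 had the second most detected genes (21864) and the highest total count (63866416), followed by Eln-/- replicate 1 (56371507). Log2 CPM over all genes tested correlated at 0.939 between it and Eln-/- replicate 1, the highest value of any pair of libraries. Over all genes tested, the median log2 CPM was also highest in these libraries, at 3.78 and 3.64, against 2.03 to 3.36 in the other 8. Marker sums of leukocytes (1.97 CPM, against 0.0377 to 19.5 CPM), endothelium (31.7, against 14.7 to 79.8 CPM), epithelium (40.7, against 8.99 to 46.5 CPM), glia (64.2, against 35.4 to 172 CPM), cardiomyocytes (105, against 4.26 to 895 CPM), mesothelium (104, against 5.77 to 185 CPM) and fibroblasts (2633, against 532 to 4387 CPM) in that Eln-/- library lay inside the range of the other 9. Cldn6, an epithelial marker, was at 0 in all libraries, and Foxd3 and Cdh1 were absent from the table. The part of these properties in the level of the members was not tested.

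No member was called between genotypes. In edgeR's quasi-likelihood test 0 of 31 passed an adjusted p of 0.05, as did 0 of 15718 genes (0%), and the adjusted p of every member was 1.00. Eln itself was not called in that edgeR test either (log2 fold change -12.2, SE 1.64, adjusted p 0.152). At an unadjusted p under 0.05 there were 2 members, Cebpb and Klf2, against 0.515% of all genes. DESeq2 called 6 of 15320 genes (0.0392%) and 0 of the 21 members to which it gave a p. Its Cook's distance filter, which drops genes with an outlying count, left 10 members untested (Atf3, Btg2, Hspa1a, Ier2, Ier3, Jun, Klf2, Myc, Nr4a1 and Zfp36). With that filter off, it called 6 of 15718 genes (0.0382%) and 0 of 31 members. Limma-voom with sample quality weights called 7 genes (0.0445%) and 0 of 31 members. Without Eln-/- replicate 1 edgeR called 1 gene, Eln (0.00627%), and 0 members. Libraries of the genotypes overlapped for 31 of 31 members, and for all but 0.305% of genes (0.14% had every Eln-/- library higher). The log2 fold change of Eln-/- against Eln+/+ was positive for 29 of 31 members, with a median of 1.25, beside 51.5% of all genes tested and a median of 0.02. Without Eln-/- replicate 1 it was positive for 9 of 31 with a median of -0.47, beside 43.8% of genes and a median of -0.13. The sign turned for 20 members. Without Eln-/- replicate 1 and Eln+/+ replicate 2 together the median was 0.69, with 23 of 31 positive. Without Eln+/+ replicate 2 alone it was 2.23. Without the 3 least complex libraries it was 1.68 over the 33 members then tested.

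**Figure D3:**
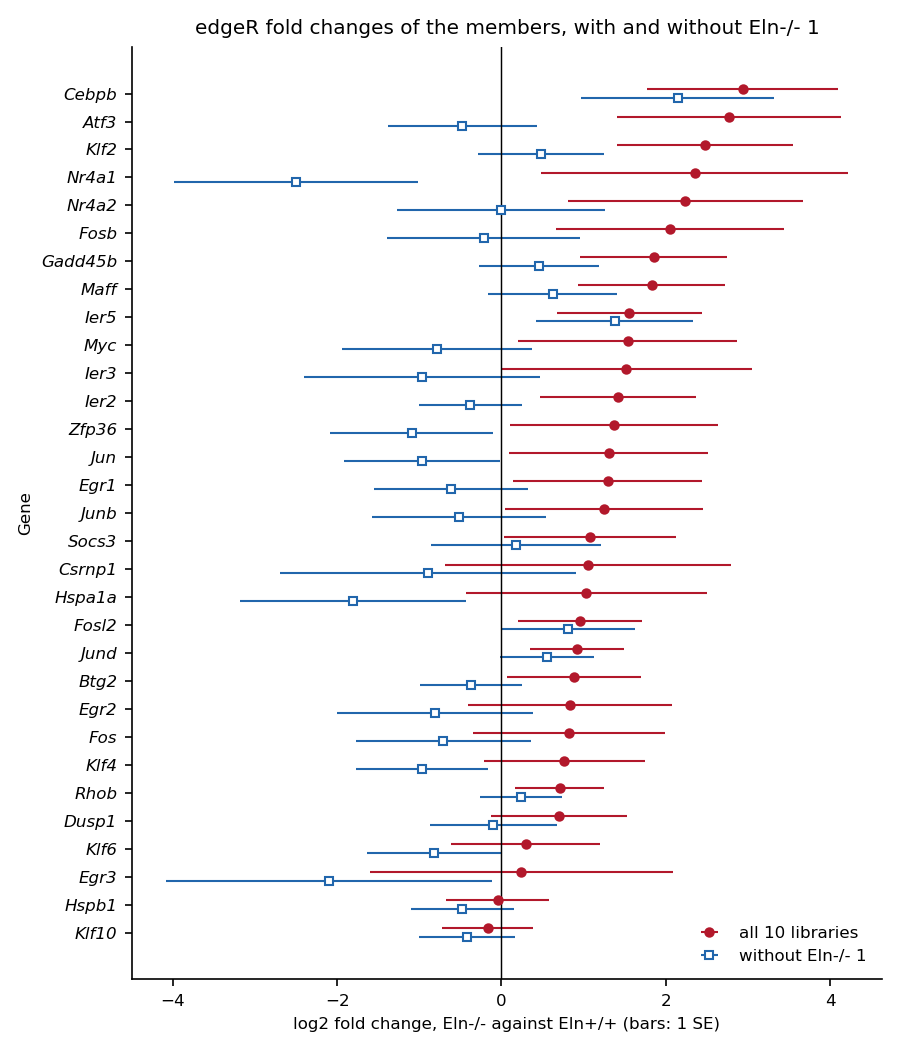
Log2 fold change of Eln-/- against Eln+/+ in edgeR (horizontal axis, bars 1 SE) for each tested member (vertical axis, ordered by the value with all libraries), with all 10 libraries (filled red circles) and without Eln-/- replicate 1 (open blue squares). With all libraries 29 of 31 are above 0, and without that library 9 of 31.

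AP-1 is a dimer of a FOS and a JUN protein, or of 2 JUN proteins, that binds DNA through a basic leucine zipper. Fos (chromosome 12, 85473890 to 85477273, plus strand, mm10) was the most abundant member per exonic length, at a median of 371 TPM (a level scaled to exonic length and library) over the 10 libraries. Its level was 118, 3017, 340.3, 374 and 395 CPM in Eln+/+ replicates 1 to 5 and 5438, 1281, 568, 169 and 73 CPM in Eln-/- replicates 1 to 5. The values of Eln-/- replicate 1 and Eln+/+ replicate 2 stood above the rest, and the remaining 8 libraries of both genotypes were interleaved. Means of Fos were 849 ± 1217 CPM for Eln+/+ against 1506 ± 2249 CPM for Eln-/- (SD, n = 5 each), and its log2 fold change was 0.83 (SE 1.17) with all libraries and -0.70 without Eln-/- replicate 1. Fosb, a second FOS protein with a splice form that lasts longer, was at 61.1, 107, 6.17, 7.05 and 5.19 CPM in Eln+/+ replicates 1 to 5 and 644, 23.6, 3.49, 95.6 and 7.01 CPM in Eln-/- replicates 1 to 5. Eln-/- replicate 1 was highest, and Eln+/+ replicates 1 and 2 and Eln-/- replicate 4 stood above the other 6. Its log2 fold change was 2.05 (SE 1.38), and -0.22 without that highest library. Fosl2, a FOS protein that lacks a strong activation domain, had another order, at 63.4, 37.7, 8.77, 17.4 and 16.1 CPM in Eln+/+ replicates 1 to 5 and 76.2, 21.4, 15.3, 142 and 22.4 CPM in Eln-/- replicates 1 to 5. The highest values of Fosl2 were in Eln-/- replicates 4 and 1 and Eln+/+ replicate 1, of which the first and last are among the least complex libraries. Those 2 libraries also had the lowest TMM factors (0.486 and 0.562), so this order depends on the scaling. The log2 fold change of Fosl2 was 0.95 (SE 0.75), 0.81 without Eln-/- replicate 1 and 0.24 without Eln-/- replicate 4, its highest library by CPM. Fosl1 had 7 counts in Eln-/- replicate 1 and 0 in the other 9 libraries.

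Among the JUN proteins, Jun and Junb had the library order of Fos at the top and Jund did not. Jun (chromosome 4, 95049034 to 95052222, minus strand), the main partner of Fos, was at 32.9, 799.9, 104, 179.5 and 161 CPM in Eln+/+ replicates 1 to 5 and 2633, 309.7, 141, 38.2 and 37.3 CPM in Eln-/- replicates 1 to 5. It had the same top pair as Fos, and the lowest values were in the 3 least complex libraries. The log2 fold change was 1.31 (SE 1.21), and -0.96 without Eln-/- replicate 1. Junb, which tempers the activity of Jun on many sites, was at 59.3, 801, 12.5, 61.4 and 83.4 CPM in Eln+/+ replicates 1 to 5 and 1851, 300.1, 111, 104 and 55.9 CPM in Eln-/- replicates 1 to 5. Eln-/- replicate 2 came next for Junb as for Jun, and the log2 fold change was 1.25 (SE 1.21), or -0.52 without the highest library. Jund, the JUN protein present in resting cells, was at 43.4, 26.6, 20.1, 12.4 and 21.1 CPM in Eln+/+ replicates 1 to 5 and 88, 19.5, 38.2, 69.2 and 19.1 CPM in Eln-/- replicates 1 to 5. Its span of values was much narrower and the groups overlapped, with a log2 fold change of 0.92 (SE 0.57) and 0.56 without Eln-/- replicate 1. Exons of Jun, Junb and Jund overlap genes on the other strand (Junos, Prdx2 and Gm11175), and the strand setting of the counts is not given in the sources used here. The same holds for Fosl1 (Ccdc85b), Csrnp1 (1700019L13Rik), Dusp1 (Ergic1), Zfp36 (Gm44710) and Hspa1a (Gm20481).

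EGR proteins are zinc finger factors that bind GC-rich sites. Egr1 (chromosome 18, 34859823 to 34864984, plus strand), a direct target of the serum response factor, was at 75.8, 1277, 126, 217 and 152 CPM in Eln+/+ replicates 1 to 5 and 3553, 523, 158, 243 and 47.3 CPM in Eln-/- replicates 1 to 5. The top pair was again Eln-/- replicate 1 and Eln+/+ replicate 2, followed by Eln-/- replicate 2, and the other 7 lay between 47.3 and 243 CPM. Its log2 fold change was 1.29 (SE 1.15), and -0.61 without the highest library. Egr2, known for its role in Schwann cell myelination, was at 13.5, 55, 11.7, 11.2 and 5.24 CPM in Eln+/+ replicates 1 to 5 and 128, 22.2, 9.42, 12.7 and 0.0377 CPM in Eln-/- replicates 1 to 5. Eln-/- replicate 5 was nearly empty of Egr2, and the first 3 libraries were those of Egr1. This gave a log2 fold change of 0.84 (SE 1.24), which was -0.81 without Eln-/- replicate 1. Egr3 stayed at or below 16.4 CPM and had 0 counts in Eln-/- replicates 3 and 5.

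NR4A receptors are nuclear receptors that act without a known natural ligand and are made on demand. Nr4a1 (chromosome 15, 101254269 to 101274795, plus strand) was at 0.794, 195, 15, 19.7 and 6.84 CPM in Eln+/+ replicates 1 to 5 and 1179, 23.6, 5.26, 4.36 and 0.490 CPM in Eln-/- replicates 1 to 5. Its value in Eln-/- replicate 1 was 172 times the median of the other 9 libraries, the largest such ratio among the members tested. Nr4a1 had a log2 fold change of 2.35 (SE 1.87), and -2.50 (SE 1.49) without that library. Nr4a2, needed for dopamine neurons, was at 0.926, 5.67, 0.101, 2.26 and 0.557 CPM in Eln+/+ replicates 1 to 5 and 37.4, 4.01, 0.916, 2.47 and 0.226 CPM in Eln-/- replicates 1 to 5. It shared the top pair, with a log2 fold change of 2.24 (SE 1.43) and -0.01 without Eln-/- replicate 1. Nr4a3 had 187 counts in that library, 42 in each of Eln-/- replicates 2 and 4, 21 and 5 in Eln+/+ replicates 2 and 5, and 0 in the other 5.

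KLF proteins are zinc finger factors of CACCC sites. Klf2 (chromosome 8, 72319033 to 72321656, plus strand), which responds to flow in endothelium, was at 24.3, 71.1, 16.2, 4.97 and 7.75 CPM in Eln+/+ replicates 1 to 5 and 553, 35.2, 45.3, 41.8 and 17.2 CPM in Eln-/- replicates 1 to 5. Eln-/- replicate 1 stood 7.77 times above the next library, and the other 4 Eln-/- libraries overlapped the Eln+/+ range of 4.97 to 71.1 CPM. Its log2 fold change of 2.48 (SE 1.07) had an unadjusted p of 0.0405 and an adjusted p of 1.00 in edgeR (0.60 to 1.00 over the alternatives), and the fold change was 0.48 without that library. Klf4, a repressor of the contractile genes of smooth muscle, was at 5.69, 24.1, 29.7, 11.4 and 6.10 CPM in Eln+/+ replicates 1 to 5 and 99, 8.32, 2.79, 16 and 4.56 CPM in Eln-/- replicates 1 to 5. It had Eln+/+ replicate 3 in second place, and its log2 fold change was 0.76 (SE 0.98), or -0.97 without the highest library. Klf6 was the second most abundant member per exonic length (184 TPM), at 35.1, 576, 539, 362 and 322 CPM in Eln+/+ replicates 1 to 5 and 1418, 338, 343, 39.5 and 109.9 CPM in Eln-/- replicates 1 to 5. Its lowest values were in the 3 least complex libraries, and the log2 fold change was 0.29 (SE 0.91) and -0.82 without the highest library. Klf10, which is induced by TGF-beta, was at 22.8, 85, 107, 118 and 82.6 CPM in Eln+/+ replicates 1 to 5 and 120.2, 90.7, 68.6, 18.5 and 71.4 CPM in Eln-/- replicates 1 to 5. Eln-/- replicate 1 led the next library by a factor of 1.02 only, and the log2 fold change was -0.17 (SE 0.55), close to 0. Klf6 and Klf10 followed each other across the libraries (r = 0.91 over 10, 0.92 without Eln-/- replicate 1). Both were lowest in Eln+/+ replicate 1 and Eln-/- replicate 4, which are among the least complex libraries.

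Atf3 and Cebpb are leucine zipper factors of the stress response, Maff is a small MAF protein, and Myc drives growth genes. Atf3 (chromosome 1, 191170296 to 191218039, minus strand) was at 24.4, 32, 8.10, 6.59 and 9.11 CPM in Eln+/+ replicates 1 to 5 and 500.3, 4.44, 1.32, 26.9 and 13.8 CPM in Eln-/- replicates 1 to 5. A single library set it apart, at 15.6 times the next one, and the log2 fold change of 2.77 (SE 1.36) became -0.48 without it. Myc was at 4.43, 115, 26.6, 21.3 and 10.6 CPM in Eln+/+ replicates 1 to 5 and 434, 47.7, 26, 0.581 and 8.71 CPM in Eln-/- replicates 1 to 5. It kept the top pair of Fos and Jun and was nearly empty in Eln-/- replicate 4, with a log2 fold change of 1.54 (SE 1.34) and -0.78 without Eln-/- replicate 1. Cebpb (chromosome 2, 167688915 to 167690418, plus strand) was at 1.19, 4.09, 0.142, 0.618 and 2.27 CPM in Eln+/+ replicates 1 to 5 and 34.1, 1.75, 1.56, 17.4 and 9.05 CPM in Eln-/- replicates 1 to 5. Here the 3 highest values were all from Eln-/- (replicates 1, 4 and 5), while Eln-/- replicates 2 and 3 lay inside the Eln+/+ range. Its log2 fold change of 2.94 (SE 1.16) had an unadjusted p of 0.0268 and an adjusted p of 1.00 (0.60 to 1.00 over the alternatives) in edgeR, and was 2.14 (SE 1.17) without Eln-/- replicate 1. Eln-/- replicates 4 and 5 are among the 3 least complex libraries, and without these 3 and Eln-/- replicate 1 the log2 fold change of Cebpb was -0.11. Cebpb overlaps exonic bases of Tmem189 on the other strand. Maff was at 8.46, 9.94, 8.93, 5.27 and 6.37 CPM in Eln+/+ replicates 1 to 5 and 90.1, 9.13, 12.7, 1.45 and 25 CPM in Eln-/- replicates 1 to 5. Eln+/+ values of Maff were close together and Eln-/- values reached above and below them, with a log2 fold change of 1.83 (SE 0.89) and 0.63 without the highest library. Csrnp1, a nuclear protein induced by AXIN1, ranged from 0 to 106 CPM across Eln+/+ libraries and from 0.0754 to 225 CPM across Eln-/- libraries.

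Of the IER genes, Ier2 followed Fos and Ier5 did not. Ier2 was at 77.2, 524, 119, 132 and 118 CPM in Eln+/+ replicates 1 to 5 and 1999, 256, 128, 94.3 and 120.4 CPM in Eln-/- replicates 1 to 5. Apart from the top pair and Eln-/- replicate 2, its 7 other values lay between 77.2 and 132 CPM. The log2 fold change was 1.42 (SE 0.95), and -0.38 without Eln-/- replicate 1. Ier5, which acts with heat shock factor HSF1, was at 14.9, 9.74, 0.284, 1.44 and 10.3 CPM in Eln+/+ replicates 1 to 5 and 31.5, 18.2, 14.1, 24.1 and 19.9 CPM in Eln-/- replicates 1 to 5. By CPM the genotypes were nearly apart: only Eln-/- replicate 3 was below the highest Eln+/+ value. That value was 225 counts in Eln+/+ replicate 1, whose TMM factor was 0.562, so which library overlaps depends on the scaling. The share of all genes with so small an overlap was not counted. Its log2 fold change was 1.56 (SE 0.89) with an unadjusted p of 0.105, and 1.38 (SE 0.95) without Eln-/- replicate 1. The lowest adjusted p of any member under any alternative, 0.338, was that of Ier5 with limma-voom and sample quality weights. Ier3, an inhibitor of cell death, ranged from 0.0661 to 37.8 CPM across Eln+/+ libraries and from 0.436 to 120.1 CPM across Eln-/- libraries.

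The feedback genes act against the signal or the transcripts. Dusp1 (chromosome 17, 26505590 to 26562128, minus strand), which removes phosphate from MAP kinases, was at 88.8, 1113, 255, 219.6 and 205 CPM in Eln+/+ replicates 1 to 5 and 1637, 689, 382, 120.5 and 221 CPM in Eln-/- replicates 1 to 5. The 2 libraries at the top differed less for Dusp1 than for Fos or Jun, and the log2 fold change was 0.70 (SE 0.83) and -0.10 without the highest one. Btg2, an antiproliferative partner of the mRNA deadenylase complex, was at 282, 852, 117, 135 and 235 CPM in Eln+/+ replicates 1 to 5 and 1985, 312, 308, 214 and 175 CPM in Eln-/- replicates 1 to 5. No library of Btg2 was under 117 CPM, and its log2 fold change was 0.89 (SE 0.82), or -0.37 without the highest library. Gadd45b, an activator of the p38 pathway, was at 3.11, 23.7, 6.60, 13.6 and 15.6 CPM in Eln+/+ replicates 1 to 5 and 157, 17.2, 16.8, 6.17 and 28.9 CPM in Eln-/- replicates 1 to 5. This gave a log2 fold change of 1.85 (SE 0.89), and 0.46 without Eln-/- replicate 1, which stood 5.43 times above the next library. Rhob, a short-lived small GTPase of endosomes, was at 29.3, 124, 85.7, 67.6 and 113 CPM in Eln+/+ replicates 1 to 5 and 291, 124, 144, 60.3 and 68.4 CPM in Eln-/- replicates 1 to 5. Rhob spanned 29.3 to 291 CPM over both genotypes, with a log2 fold change of 0.71 (SE 0.54) and 0.23 without the highest library. Zfp36, which marks AU-rich transcripts for decay, ranged from 44.2 to 818 CPM across Eln+/+ libraries and from 29.9 to 2350.3 CPM across Eln-/- libraries, with the same top pair. Socs3, the inhibitor of JAK kinases, ranged from 9.98 to 267 CPM and from 17.8 to 488 CPM.

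The heat shock genes encode chaperones. Hspa1a, the inducible HSP70 chaperone, was at 4.96, 21, 3.84, 9.28 and 5.55 CPM in Eln+/+ replicates 1 to 5 and 81.1, 5.17, 4.52, 0.508 and 0 CPM in Eln-/- replicates 1 to 5. It had the top pair of the immediate early genes, and its log2 fold change was 1.03 (SE 1.47) and -1.80 without the highest library. Hspa1a and Hspa1b are near-identical copies, and how reads were divided between them is not given in the sources used here, so both are uncertain. Hspa1b had 4 to 22 counts in Eln+/+ libraries and 2 to 61 in Eln-/- libraries. Hspb1, the small heat shock protein HSP27, was at 67.8, 65.6, 14.3, 25.2 and 33.3 CPM in Eln+/+ replicates 1 to 5 and 80.7, 52.4, 34.6, 20.7 and 11.1 CPM in Eln-/- replicates 1 to 5. No library of Hspb1 stood apart, and the log2 fold change was -0.05 (SE 0.62). Per exonic length Hspb1 was at a median of 63.7 TPM, between Klf10 (48.6 TPM) and Junb (70.6 TPM), and the ranges of all 3 overlapped.

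**Figure D4:**
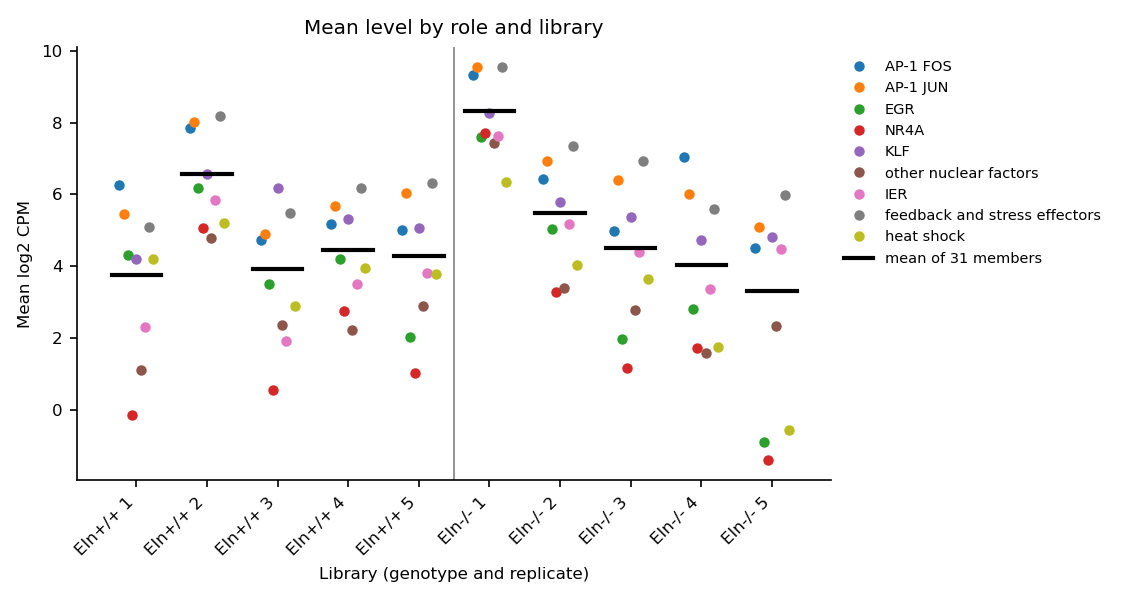
Mean log2 CPM (vertical axis) of the tested members of each role (coloured points) and of all 31 (black bars) in each library (horizontal axis). The black bars are highest in Eln-/- replicate 1 (8.32) and Eln+/+ replicate 2 (6.57) and lie between 3.30 and 5.47 in the other 8.

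Co-variation was described by the Pearson correlation of log2 CPM across libraries, for all 465 pairs of tested members. It is given as a description with no p, since the libraries share depth and quality differences that move many genes at once. Over 10 libraries the median r was 0.60, and 94.2% of pairs were positive. Over all pairs of the 15718 genes tested the median was 0.083. Without Eln-/- replicate 1 the median of the members was 0.37 with 76.1% of pairs positive, and that of all genes 0.072. Without Eln-/- replicate 1 and Eln+/+ replicate 2 together it was 0.18, beside 0.063 for all genes. Within genotypes the median was 0.54 over the 5 Eln+/+ libraries and 0.75 over the 5 Eln-/- libraries, with 0.085 and 0.091 for all genes. Leaving out the 3 least complex libraries raised the members to 0.83, and to 0.62 when Eln-/- replicate 1 was left out as well. All genes were then at -0.011 and -0.013.

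Members differed in how well they followed the rest. The correlation of each member with the mean of the other 30 was over 0.7 for 20 of 31 with all libraries and for 12 without Eln-/- replicate 1. With the mean of all 31, the median correlation was 0.78 and 0.67 for the members. Over all genes tested it was 0.32 and 0.31. Without that library the other lists ranged from -0.50 (erythroid) to 0.63 (mesothelial), with smooth muscle at 0.60, so some came close to the members. The closest 4 without that library were Zfp36 (0.96), Fos (0.95), Egr1 (0.95) and Ier2 (0.93), followed by Jun (0.91), Nr4a1 (0.86) and Dusp1 (0.85). Single pairs among them held in the 9 libraries, as for Fos with Jun (r = 0.97 over 10 and 0.96 over 9), Egr1 with Zfp36 (0.96 and 0.93) and Fos with Dusp1 (0.93 and 0.88). At the other end 6 members had a correlation under 0.1 without Eln-/- replicate 1. These were Ier5 (0.02), Atf3 (-0.02), Fosl2 (-0.03), Cebpb (-0.03), Maff (-0.04) and Jund (-0.14). Some pairs with such members were close, as Fosl2 with Jund (0.79 and 0.76), Fosl2 with Fosb (0.83 and 0.84) and Cebpb with Ier5 (0.82 and 0.83), and Jund opposed Klf10 (-0.48 and -0.89). Over the 9 libraries Jund was highest and Klf10 lowest in Eln-/- replicate 4 and Eln+/+ replicate 1. Both are among the least complex libraries and had the lowest TMM factors (0.486 and 0.562). Of the counts kept for testing, Jund took 953 of 28320298 in Eln-/- replicate 4 and 1795 of 40379424 in Eln-/- replicate 3. Its place at the top therefore depends on the scaling. Within roles, the 6 feedback and stress effectors had the highest median correlation among the roles with more than 2 tested members, 0.82 with all libraries and 0.72 without Eln-/- replicate 1, and the 5 other nuclear factors the lowest of all roles without it, -0.24.

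**Figure D5:**
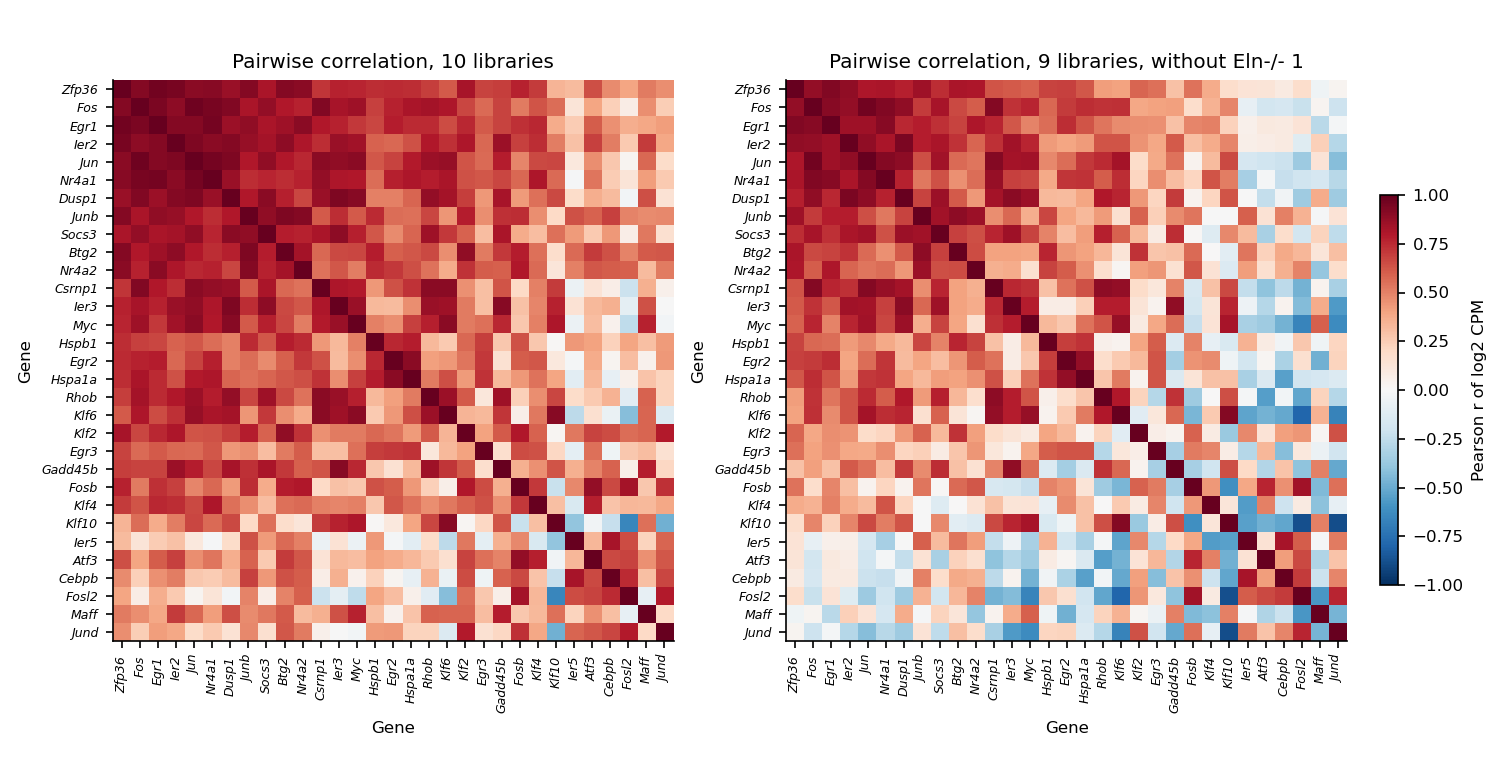
Pearson correlation of log2 CPM between pairs of the 31 members over 10 libraries (left) and over 9 libraries without Eln-/- replicate 1 (right). Genes on both axes are ordered by their correlation with the mean of the other members in the 9 libraries, from Zfp36 (0.96) to Jund (-0.14), and the median over pairs goes from 0.60 on the left to 0.37 on the right.

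Lists of genes upstream of and beside the members had medians closer to 0. Of 8 genes of the serum response factor and its partners, 0 passed the test in either direction, 6 had positive fold changes and the median was 0.44 (-0.21 with 3 positive without Eln-/- replicate 1). Fhl2, a LIM-domain cofactor and target of that factor, was at 30.6 ± 14.2 CPM for Eln+/+ against 53.8 ± 34.2 CPM for Eln-/-, and Mrtfb, an actin-regulated coactivator, at 27.8 ± 38.9 CPM for Eln+/+ against 32.4 ± 54.3 CPM for Eln-/-. Elk1, an ETS partner, had a log2 fold change of 0.94. MAP kinases (14 tested, 0 called, 5 positive) had a median of -0.02 (-0.14 with 4 positive without Eln-/- replicate 1), with Map2k2 at 46.5 ± 18.6 CPM for Eln+/+ against 41.8 ± 22.2 CPM for Eln-/- and the JNK1 gene Mapk8 at a log2 fold change of -0.89. The CREB family and its coactivators (8 tested, 0 called, 6 positive) had a median of 0.41, or -0.15 with 3 positive without that library. Crebbp, an acetyltransferase, was at 30.8 ± 16.9 CPM for Eln+/+ against 49.4 ± 52.2 CPM for Eln-/-, Creb1 at 45 ± 16.6 CPM for Eln+/+ against 28.8 ± 19.8 CPM for Eln-/- and Atf1 at a log2 fold change of 0.63.

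Other immediate and delayed early genes had mostly positive fold changes. Of 35 tested, 0 were called, 31 had positive fold changes and 29 were highest in Eln-/- replicate 1, and their median log2 fold change was 0.73, or -0.03 with 16 positive without that library. Ccn1, a matricellular protein and target of the serum response factor, was at 107, 1196, 162, 316 and 185 CPM in Eln+/+ replicates 1 to 5 and 5348, 697, 241, 60.4 and 89.1 CPM in Eln-/- replicates 1 to 5. Its 3 highest libraries were those of Fos and Jun, in the same order. Id3, an inhibitor of basic helix-loop-helix factors, was at 1458 ± 980.1 CPM for Eln+/+ against 1328 ± 637 CPM for Eln-/-, and Ccn2 had the smallest p (log2 fold change 1.37, SE 0.70). Other dual specificity phosphatases with sprouty and spred proteins (12 of 14 tested, 0 called, 9 positive) had a median of 0.33 (-0.29 with 5 positive without Eln-/- replicate 1), with Dusp6 at 46.6 ± 28.4 CPM for Eln+/+ against 55.3 ± 39.9 CPM for Eln-/-, Spry2 at 32.4 ± 20.6 CPM for Eln+/+ against 38.8 ± 40.1 CPM for Eln-/- and Dusp10 at a log2 fold change of -1.11. Decay factors of AU-rich transcripts (8 tested, 0 called, 3 positive) had a median of -0.01, or -0.43 with 1 positive without it. Btg1, an antiproliferative relative of Btg2, was at 179 ± 109.7 CPM for Eln+/+ against 430.4 ± 126 CPM for Eln-/- (log2 fold change 1.27, SE 0.49), and without Eln-/- replicate 1 the log2 fold change was 1.11. The RNA-binding protein Elavl1 was at 258 ± 117 CPM for Eln+/+ against 228 ± 118 CPM for Eln-/-.

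Lists of other stress programs had medians between -0.16 and 0.36 with all libraries and between -0.67 and -0.01 without Eln-/- replicate 1. Chaperones outside the member list (21 tested, 0 called, 11 positive) had a median log2 fold change of 0.10, or -0.67 with 4 positive without that library, and 15 of them were highest in Eln-/- replicate 1. The endoplasmic reticulum chaperone Hspa5 was at 989 ± 616 CPM for Eln+/+ against 1112 ± 1449.6 CPM for Eln-/-, the constitutive Hspa8 at 1045 ± 548 CPM for Eln+/+ against 846 ± 628 CPM for Eln-/-, and Hspb8 at a log2 fold change of -0.64. Genes of the integrated stress and unfolded protein response (12 tested, 0 called, 10 positive) had a median of 0.36 (-0.01 with 6 positive without it), with Xbp1 at 516 ± 219.6 CPM for Eln+/+ against 474 ± 256 CPM for Eln-/-, Herpud1 at 103 ± 51.8 CPM for Eln+/+ against 134 ± 59 CPM for Eln-/- and Nupr1 at a log2 fold change of 0.65. Targets of p53 with the other GADD45 genes (9 tested, 0 called, 4 positive) had a median of -0.04, or -0.39 with 2 positive without Eln-/- replicate 1. Phlda3 was at 179.6 ± 65.2 CPM for Eln+/+ against 168 ± 56.5 CPM for Eln-/- and Bax at 142 ± 118 CPM for Eln+/+ against 149 ± 102 CPM for Eln-/-. Gadd45g had a log2 fold change of 2.62 that became -0.48 without Eln-/- replicate 1. Oxidative stress genes (10 tested, 0 called, 4 positive) had a median of -0.16 (-0.51 with 2 positive without it), with Txn1 at 570.2 ± 768 CPM for Eln+/+ against 767 ± 1036 CPM for Eln-/-, Sqstm1 at 168 ± 93.9 CPM for Eln+/+ against 147 ± 77 CPM for Eln-/- and Mt1 at a log2 fold change of -0.58.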

How the data were processed

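The authors deposited 1 table of estimated counts per gene and library, not scaled for library size. The genome build was mm10, and the tools named were STAR and DESeq2, per the submitters' processing notes. The counting program, its strand setting and all versions: not given in the sources used here. Each column's name was matched to the description of 1 sample, whose title gives the genotype and replicate number. Values were rounded to whole numbers. Genes kept by filterByExpr (15718) were scaled by TMM and tested with edgeR's quasi-likelihood test (two-sided, genotype the only term, Benjamini-Hochberg over all genes, threshold 0.05). The SE is the log2 fold change divided by the root of F. The TMM factors were lowest in Eln-/- replicate 4 (0.486), Eln+/+ replicate 1 (0.562) and Eln-/- replicate 5 (0.847), and highest in Eln+/+ replicate 2 (1.37). A low factor raises the CPM of a library. Log2 CPM used a prior count of 2. TPM used merged exon lengths of GENCODE mouse release M21, whose spans were those of the table for 27046 genes. The work used edgeR 4.0.16, DESeq2 1.42.0 and limma 3.58.1 in R 4.3.3. On simulated counts with 4-fold changes, edgeR recovered 0 of 187 at the observed spread and 197 of 197 at a biological coefficient of variation of 0.2. The members, lists and tests were chosen with earlier results of these data known. Named genes were all members, the 2 most abundant and the 1 of smallest p of each pathway list, the most abundant markers (given here as sums of their lists), and the 10 non-members nearest in pattern by each of 2 correlations; members shown in full were the 2 most abundant and the 2 of smallest p of each role. A gene that this rule names is not reported here.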

Additional observations from a re-analysis of the deposited data

Results flagged for a closer look

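On log2 CPM, 6 of 62 sets of 5 libraries (a member in a genotype) had a library whose gap to the nearest other, as a share of the set's range, was above the critical value of 0.71. Chance alone flags about 1 in 20 sets. In Eln-/- the highest library was replicate 1 for Klf2 (gap 0.721 of the range, 553 CPM against 17.2 to 45.3 CPM) and for Btg2 (0.763, 1985 CPM against 175 to 312 CPM). In Eln+/+ the highest was replicate 2 for Ier2 (0.720, 524 CPM against 77.2 to 132 CPM) and Zfp36 (0.736, 818 CPM against 44.2 to 95.5 CPM). The lowest Eln+/+ library was replicate 1 for Klf6 (0.793, 35.1 CPM against 322 to 576 CPM) and for Klf10 (0.783, 22.8 CPM against 82.6 to 118 CPM).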

How the results depend on the processing

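With DESeq2's size factors, without the filter or with DESeq2 itself, the median log2 fold change of the members stayed between 1.25 and 1.26. Limma-voom with quality weights gave 0.69. Counts of genes called were 0 in edgeR, 6 with DESeq2, also 6 without its Cook's distance filter, 7 with limma-voom and quality weights, and 1 (Eln) without Eln-/- 1 and Eln+/+ 2 together. With the replicate block the median was 0.34, 19 of 31 members were positive and 0 genes were called. Same-numbered libraries had correlations of -0.56 to 0.51 in their deviations from genotype means. Only Eln+/+ replicate 3 correlated best with the Eln-/- library of its own number. The labels do not say whether the numbers pair the samples. These correlations cannot decide it, since differences in library quality also move them. Leaving out 1 library at a time gave 0 to 1 genes called (Eln, without Eln-/- replicate 1), medians of -0.47 to 2.23, 9 to 32 positive members and a median pairwise correlation of 0.37 to 0.66. The fold changes covered 31 to 33 members, depending on the library left out. Only Eln-/- replicate 1 turned the median, and 2.23 was reached without Eln+/+ replicate 2. Without Eln-/- 1 and the 3 least complex libraries the median was -0.21 with 12 of 33 positive. Spearman correlation without Eln-/- 1 was 0.35, and without both top libraries the Pearson median was 0.18.

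Members whose log2 fold change changed sign with limma-voom with sample quality weights were Atf3 (-0.70), Egr3 (-0.96), Hspa1a (-0.74), Hspb1 (0.64), Klf4 (-0.63), Klf6 (-0.12) and Nr4a1 (-0.12). With the replicate block the members that changed sign were Csrnp1 (-1.14), Egr2 (-0.57), Egr3 (-2.98), Fos (-0.23), Hspa1a (-1.96), Jun (-0.54), Klf4 (-0.35), Klf6 (-0.72), Myc (-0.46) and Nr4a1 (-1.81). Without the 3 least complex libraries Hspb1 alone changed sign (0.71). Without Eln-/- 1 and Eln+/+ 2 together they were Atf3 (-0.052), Egr3 (-1.84), Hspa1a (-1.20), Klf4 (-0.74), Klf6 (-0.60) and Nr4a1 (-0.33). Without Eln-/- 1 and the 3 least complex libraries they were Atf3 (-2.26), Btg2 (-0.12), Cebpb (-0.11), Csrnp1 (-0.23), Egr1 (-0.37), Egr2 (-0.39), Egr3 (-0.58), Fos (-0.16), Fosb (-1.21), Fosl2 (-0.12), Hspa1a (-1.03), Hspb1 (0.34), Ier2 (-0.21), Ier3 (-0.68), Jun (-0.46), Junb (-0.22), Klf4 (-1.65), Klf6 (-0.39), Myc (-0.23), Nr4a1 (-2.03) and Zfp36 (-0.76). Leaving out 1 library at a time, those that changed sign in some setting ranged as follows: Atf3 (-0.48 to 3.20), Btg2 (-0.37 to 1.65), Csrnp1 (-0.89 to 2.92), Dusp1 (-0.10 to 1.67), Egr1 (-0.61 to 2.67), Egr2 (-0.81 to 1.74), Egr3 (-2.10 to 0.80), Fos (-0.70 to 2.30), Fosb (-0.22 to 2.98), Hspa1a (-1.80 to 1.64), Hspb1 (-0.47 to 0.21), Ier2 (-0.38 to 2.23), Ier3 (-0.96 to 3.35), Jun (-0.96 to 2.41), Junb (-0.52 to 3.17), Klf10 (-0.42 to 0.087), Klf4 (-0.97 to 1.14), Klf6 (-0.82 to 0.59), Myc (-0.78 to 2.72), Nr4a1 (-2.50 to 4.52), Nr4a2 (-0.0078 to 3.23) and Zfp36 (-1.09 to 3.15). No member that was given a p passed the threshold under any alternative run (DESeq2 gave none to 10 members until its Cook's distance filter was turned off), and the causes of these shifts were not tested. The spread between libraries (biological coefficient of variation 1.16) limits these tests. The alternatives that leave out several libraries with Eln-/- 1, Spearman without it, DESeq2 without its filter, and the correlations within a genotype were added after the data were seen.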

Other observations

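Genes outside the member list whose log2 CPM followed the members' mean most closely over the 10 libraries (average log2 CPM of at least 3) were Actn1 (r = 0.97), an actin cross-linker, Ccn1 (0.97), Lrrfip1 (0.95), Prickle1 (0.94), Ptgs2 (0.93), the inducible cyclooxygenase, Bclaf1 (0.93), Nfkbiz (0.92), Ncam1 (0.92), Brd2 (0.92) and Skil (0.91), a brake on TGF-beta signalling. Actn1 was at 8.93, 84.2, 22, 26.4 and 19.8 CPM in Eln+/+ replicates 1 to 5 and 283, 65.3, 29.3, 11.2 and 8.44 CPM in Eln-/- replicates 1 to 5. Eln-/- replicate 1 and Eln+/+ replicate 2 led as they did for Fos. Without Eln-/- replicate 1, the closest by Spearman correlation over 9 libraries were Arhgef1 and Wbp1l (0.98 each), Xiap, Ccdc25, Kdm2b, Lrrn1, Efemp1, Nelfe and Angptl2 (0.97 each) and Rasa3 (0.96). These sets of 10 had no gene in common, but they differ in the kind of correlation as well as in the library left out. By Pearson correlation over the same 9 libraries, the first set ranged from 0.78 (Brd2) to 0.93 (Actn1). The second ranged from 0.70 (Wbp1l) to 0.86 (Arhgef1). Lrrn1 was at 0.0661, 54.1, 3.31, 22.7 and 10.47 CPM in Eln+/+ replicates 1 to 5 and 46.7, 23.2, 11.7, 7.55 and 0.0754 CPM in Eln-/- replicates 1 to 5. It was near 0 in Eln+/+ replicate 1 and Eln-/- replicate 5, and Eln+/+ replicate 2 was its highest library. The points are libraries that share depth and quality, so these are descriptions with no p.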
